A study of Rattus norvegicus with 6 samples.

Results

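The genes described here encode 10 proteins known from the choroid plexus, whose epithelium secretes the cerebrospinal fluid. They are the carriers and receptors Ttr and Folr1, the growth factor Igf2 and its binding protein Igfbp2, the signalling antagonist Sostdc1, the co-receptor Kl, the enzymes Enpp2 and Ace, and Wfdc2 and Calml4. Probes were assigned by matching the RefSeq accession printed on the array to the current gene symbol. This gave 14 probes for the 10 genes, out of 30367 probes and 15154 named genes on the array. Wfdc2, Igfbp2, Ace and Calml4 had 2 probes each, and the other 6 genes had 1 probe each.

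The samples are labelled as hippocampi of male Wistar rats that had been castrated (orchidectomized) or had undergone a sham operation at 2 months of age. Tissue was taken 2 weeks after surgery, under ketamine and medetomidine anaesthesia. Each group held 3 biological replicates, numbered 1 to 3, and 200 ng of RNA from each was labelled with Cy3 and hybridised to its own 1-colour Agilent array. The labels name no hormone treatment and no genetic modification in either group. The values below are log2 probe intensities minus the array's own 75th percentile, so a value of 0 is a probe as bright as that percentile.

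Transthyretin (Ttr) carries thyroxine and, bound to retinol-binding protein, retinol, and it is among the most abundant transcripts of choroid plexus epithelium. The same epithelium moves folate into the cerebrospinal fluid through folate receptor alpha (Folr1) and releases insulin-like growth factors, their binding proteins and shed membrane proteins into the ventricles. The hippocampus borders the lateral ventricle and its choroid plexus. In bulk tissue, fewer cells of a type and less RNA per cell cannot be told apart.

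Of the 30367 probes, 23785 were well above background on sham 2 and between 24533 and 26173 on the other 5 arrays. All 9 quality measures of the scanner software were in range on every array. Sham 2 stood apart, and its marker genes, given below, went against its tissue label, so whether this RNA came from hippocampus is uncertain. It is called sham 2 by its label only. Its Pearson correlation with any other array, over all probes, was 0.876 to 0.88, against 0.983 to 0.993 between pairs of the remaining 5. All 14 probes of the 10 genes were well above background on all 6 arrays. The scanner saturated at readings of 65290 to 65292, and a saturated value is a lower bound of the true intensity. On sham 2, 8 of the 14 probes were saturated, and for 6 genes every probe was. The Ttr probe of orchidectomized 1 was the only other saturated value among them. The values of sham 2 are therefore given apart from the rest, and the orchidectomized animals are set first against sham 1 and 3 and then against all 3 sham animals. The contrast of sham 2 with the other arrays has 1 array on one side and mixes both surgical groups on the other, so it is a description with no test.

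On sham 2, 9 of the 10 genes were more than 1 log2 unit above the median of the other 5 arrays, and none was more than 1 unit below it. Of 27367 probes well above background on some array, 19.4% were higher on sham 2 by this rule. The median difference over the 10 genes was 5.41 log2 units, a lower bound because 6 of them were saturated on sham 2, against 0.00 over all probes. The 4 genes with an unsaturated probe ran from 5.38 to 10.58. The 13 probes of these 9 genes were each brightest on sham 2. Ttr was the exception, and its reading on sham 2 was cut off by saturation.

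**Figure D1:**
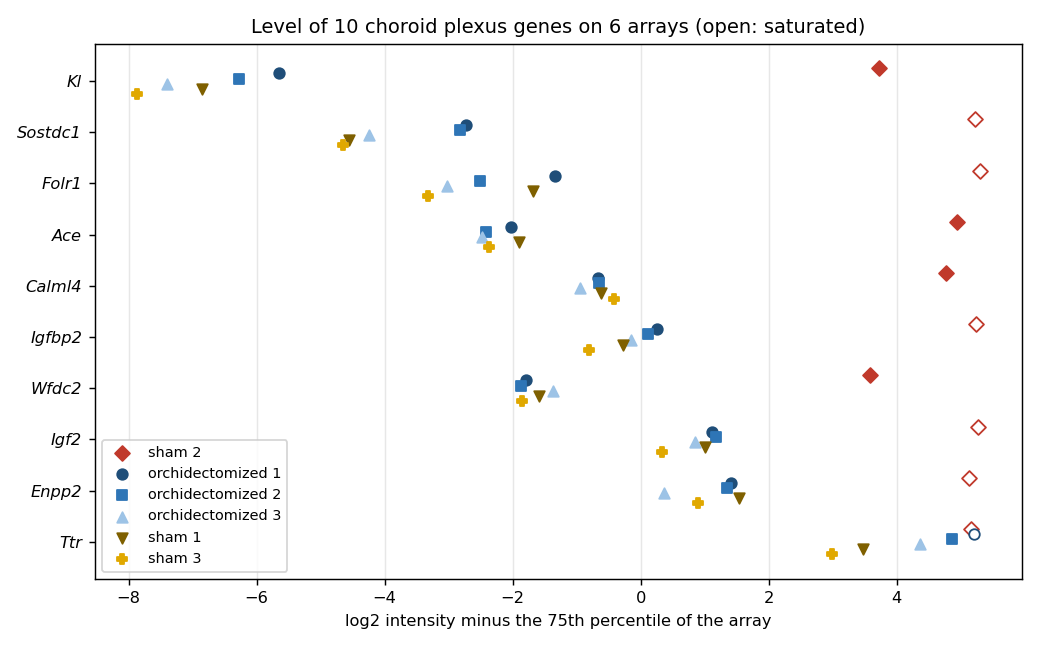
Level of the 10 genes on each of the 6 arrays, 1 probe per gene, as log2 intensity minus the 75th percentile of the array (horizontal axis); open symbols are saturated values, which are lower bounds. Sham 2 (red) lies to the right of the other 5 arrays for every gene but Ttr, whose values on sham 2 and orchidectomized 1 are both saturated.

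The carriers differed in how much room the scanner left. Ttr had a saturated level of 5.16 on sham 2, against 5.20 (also saturated), 4.87 and 4.36 in orchidectomized 1, 2 and 3 and 3.47 and 2.99 in sham 1 and 3. Sham 2 and the first 2 orchidectomized arrays were thus near the upper limit of the scanner, and no fold can be given for sham 2. The orchidectomized 2 probe read 62565 units, just under saturation, and orchidectomized 3 read 23010 units. Folr1, which binds folate at the cell surface, had a saturated level of 5.31 on sham 2. Its levels were -1.34, -2.50 and -3.02 in orchidectomized 1 to 3 and -1.69 and -3.32 in sham 1 and 3. Sham 2 was thus at least 206-fold above the mean of the other arrays, and the surgical groups overlapped among those.

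Igf2, a growth factor made in the adult brain mainly by choroid plexus and meninges, had a saturated level of 5.28 on sham 2. On the other arrays it lay in a narrow band, at 1.11, 1.18 and 0.84 in orchidectomized 1 to 3 and 1.01 and 0.33 in sham 1 and 3. Igfbp2, which binds insulin-like growth factors and was measured by 2 probes, was saturated on sham 2 with both. Its brighter probe read 5.25 there, against 0.25, 0.12 and -0.14 in orchidectomized 1 to 3 and -0.27 and -0.81 in sham 1 and 3. The ligand and its binding protein were at least 20.9-fold and at least 42.8-fold higher on sham 2 than the mean of the other arrays. The second Igfbp2 probe gave at least 61.2-fold and ordered the other arrays almost as the first did, with sham 3 lowest and orchidectomized 1 highest.

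Sostdc1, a secreted antagonist of bone morphogenetic proteins that also modulates Wnt signalling, had a saturated level of 5.22 on sham 2. Its other levels were -2.73, -2.82 and -4.25 in orchidectomized 1 to 3 and -4.57 and -4.65 in sham 1 and 3. Orchidectomized 1 and 2 stood above the remaining 3 arrays, and sham 2 was at least 521-fold above the mean of all 5. Kl encodes klotho, the co-receptor through which fibroblast growth factor 23 acts and whose outer part is shed into cerebrospinal fluid. It read 3.72 on sham 2, below saturation, against -5.65, -6.28 and -7.41 in orchidectomized 1 to 3 and -6.86 and -7.87 in sham 1 and 3. Kl was 10.58 log2 units above the other arrays' median and 1481-fold above their mean. Only 0.0146% of the 27367 probes well above background on some array had a larger difference on sham 2. Kl was dim on the other 5 arrays, at processed signals of 6.60 to 35.5 units, and under another background correction (normexp) its difference was 8.31 log2 units. With normexp the difference of Sostdc1 from the other arrays' median was 8.47, against 9.47 in the main processing. The fold of Sostdc1, and its share given below, are thus bounds for the main processing only.

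The enzymes and the remaining secreted protein followed. Enpp2 encodes autotaxin, the secreted enzyme that makes lysophosphatidic acid. It had a saturated level of 5.12 on sham 2, against 1.40, 1.35 and 0.37 in orchidectomized 1 to 3 and 1.53 and 0.90 in sham 1 and 3, so it was at least 16.1-fold higher on sham 2. Orchidectomized 3 was the lowest of the other arrays. Ace, the angiotensin-converting enzyme, read 4.94 on sham 2 with its brighter probe, with no saturation, and between -2.48 and -1.91 on the other 5 arrays. The 2 Ace probes were 144-fold and 316-fold higher on sham 2. Wfdc2, a secreted protein with whey acidic protein domains, read 3.59 on sham 2, against -1.79, -1.88 and -1.38 in orchidectomized 1 to 3 and -1.59 and -1.86 in sham 1 and 3. Its 2 probes were 39.0-fold and 31.9-fold higher on sham 2, and orchidectomized 3 was the highest of the other arrays. Calml4, a calmodulin-like protein of brush borders that is not known as a carrier, read 4.77 on sham 2 and between -0.95 and -0.41 elsewhere. Its unsaturated probe was 43.1-fold higher and its saturated probe at least 38.0-fold higher on sham 2.

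**Figure D2:**
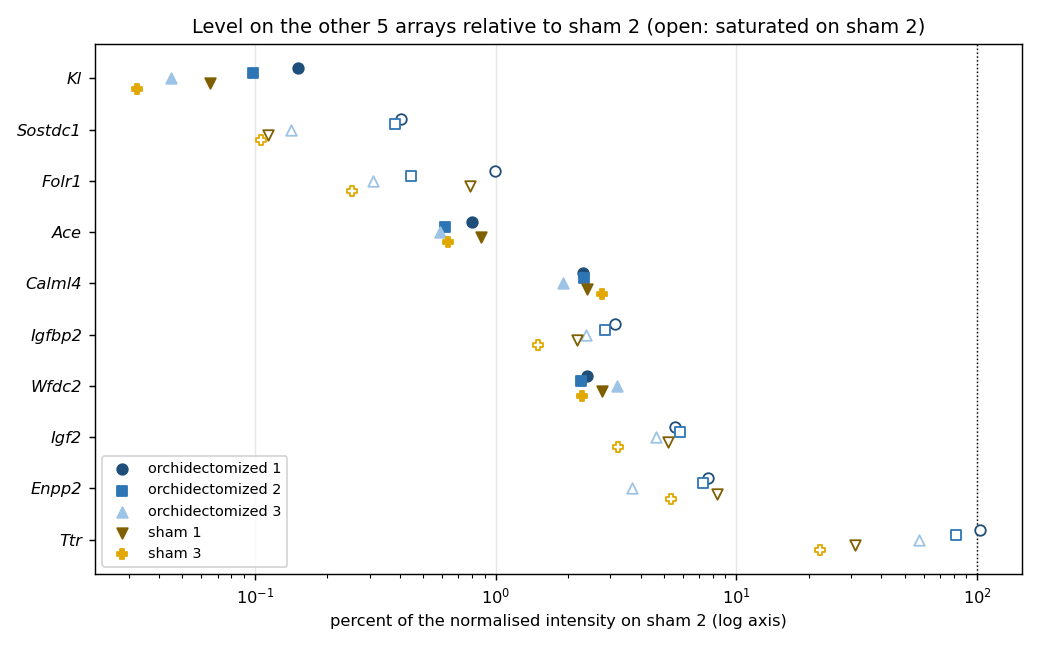
Normalised intensity of each gene on the 5 arrays other than sham 2, as a percent of its value on sham 2 (log axis); open symbols mark probes saturated on sham 2, for which the percent is an upper bound, except the Ttr value of orchidectomized 1 (103%), which is saturated on both arrays and bounds nothing. Kl lies between 0.0324% and 0.151% and Enpp2 at no more than 8.31%, and the dotted line marks 100%.

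Expressed as a share of the level on sham 2, the other 5 arrays held 0.0324% to 0.151% for Kl, at most 0.403% for Sostdc1 and at most 0.996% for Folr1. The shares were 0.586% to 0.871% for Ace, 1.90% to 2.76% for Calml4 and 2.27% to 3.21% for Wfdc2. They were at most 3.13% for Igfbp2, at most 5.85% for Igf2 and at most 8.31% for Enpp2. Among the 4 genes with an unsaturated probe the fold ran from 39.0 for Wfdc2 to 1481 for Kl, so the excess on sham 2 was not a common factor. The spread over the other arrays also differed among them, from a range of 0.50 log2 units for Wfdc2 and 0.54 for Calml4 to 1.98 for Folr1 and 2.22 for Kl, with at least 2.21 for Ttr, whose highest value was saturated.

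Of the 10 genes, 7 had an entry among the RefSeq promoters of the GRCr8 assembly, each covering 250 bases before to 50 bases after a transcription start, and Igf2 had 2 entries. The 3 promoters printed here are those that hold the letters TAATC on either strand, the core bound by homeodomain factors of the OTX type such as OTX2, which choroid plexus development needs in mice. This motif was picked after the sequences and the levels had been seen. The capitals mark it, and each line reads 5′ to 3′ on the gene's strand. The Ttr window is chr18:12218508-12218807, the Kl window chr12:5325753-5326052 and the Ace window chr10:91409879-91410178, all on the plus strand of GRCr8.
Ttr: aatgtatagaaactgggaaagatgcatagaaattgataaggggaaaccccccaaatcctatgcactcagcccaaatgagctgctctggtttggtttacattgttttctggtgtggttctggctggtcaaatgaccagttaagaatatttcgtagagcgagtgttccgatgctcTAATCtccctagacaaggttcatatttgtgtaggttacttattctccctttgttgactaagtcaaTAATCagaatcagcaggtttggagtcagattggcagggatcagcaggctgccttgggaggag
Kl: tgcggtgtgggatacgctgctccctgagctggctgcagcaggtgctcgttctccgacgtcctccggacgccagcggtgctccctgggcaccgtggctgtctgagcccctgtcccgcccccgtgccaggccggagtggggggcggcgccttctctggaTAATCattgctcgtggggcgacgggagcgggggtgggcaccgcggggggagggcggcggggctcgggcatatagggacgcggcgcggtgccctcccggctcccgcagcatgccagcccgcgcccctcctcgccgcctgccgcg
Ace: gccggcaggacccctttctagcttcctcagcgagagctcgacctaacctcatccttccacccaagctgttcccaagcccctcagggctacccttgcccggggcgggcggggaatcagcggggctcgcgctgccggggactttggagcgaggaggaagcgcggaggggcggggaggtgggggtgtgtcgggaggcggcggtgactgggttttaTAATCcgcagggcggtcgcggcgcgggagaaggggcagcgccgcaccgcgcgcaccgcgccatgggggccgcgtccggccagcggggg
The matches began 77 and 12 bases before the start in Ttr, 93 bases before it in Kl and 38 bases before it in Ace, all on the strand shown. TAATC or its reverse complement GATTA occurred in 22.9% of all 33469 promoters of this length. In Ace the match overlapped a match to TATAAA on the opposite strand, a motif found in 14.2% of promoters and in no other of the 7 genes. GGGCGG was found in 5 of the 7 genes and in 33.1% of promoters, and GTAAACA in 0 of the 7 and in 3.78%, both strands counted. The windows differed in composition, with 43.7% G and C in Ttr and 72.3% in Ace, and more than that in Kl, against a median of 51.7% over all promoters. A match describes these letters and is not a binding site.

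Other genes of choroid plexus epithelium were high on the same array. All 15 detected markers of that epithelium outside the 10 genes were more than 1 log2 unit higher on sham 2. Their median difference was 8.56 units, a lower bound because some of them were saturated there. Cldn2, a tight junction claudin, read 4.77 on sham 2 and -7.73 to -5.52 elsewhere, a 3071-fold difference. This fold is inexact, because Cldn2 was dim elsewhere, at -7.27 in sham 1 and -7.73 in sham 3. The lowest values well above background on those 2 arrays were -7.48 and -8.21. Kcnj13, an inward rectifier potassium channel, was saturated on sham 2 and at least 830-fold higher there. This bound is for the main processing only, and Kcnj13 was low elsewhere, at -5.39 to -3.47. Tmem72 and the prolactin receptor Prlr were well above background on only 4 and 2 of the other 5 arrays, and their signals there gave inexact folds of 1587 and 1112. The summed level of the 15 markers, in multiples of the 75th percentile, was at least 327 on sham 2, where Kcnj13, Kcne2, Otx2, Msx1 and Krt18 were saturated. It was 1.33 to 1.57 in the orchidectomized arrays and 1.15 and 1.59 in sham 1 and 3.

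Markers of cilia-bearing ependymal cells were also high on sham 2, with 7 of 8 higher and a median difference of 5.02, and so were 8 of 12 meningeal and fibroblast markers, with a median of 1.59. Markers of hippocampal cells ran the other way. Of 16 glutamatergic neuron markers 14 were lower on sham 2, with a median difference of -7.29, and the vesicular glutamate transporter Slc17a7 was not well above background there. Neurod6 was 650.5-fold and Nptx1 596-fold lower on sham 2. Interneuron markers were lower in 9 of 10 genes, astrocyte markers in 9 of 10 and myelin markers in 10 of 10, with medians of -5.71, -4.62 and -4.35. Among all probes, 23.8% were lower on sham 2 by this rule. On sham 2, which is labelled hippocampus, 11 of the 16 glutamatergic markers were well above background, against 16 of 16 on each other array. The markers of this array thus went against its tissue label. Endothelial markers had a median of 0.06, microglial markers -1.08 and blood markers 0.98.

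Genes that act with the 10 proteins did not share a direction on sham 2. In thyroid hormone and retinol carriage, the setting of Ttr, 5 of 16 detected genes were higher and 8 lower. The deiodinase Dio2, which activates thyroxine, was not well above background on sham 2, where it was lower by at least 30.8-fold. The retinaldehyde dehydrogenase Aldh1a1 was 59.4-fold lower there. In the insulin-like growth factor system 5 of 15 genes were higher and 2 lower. The receptor Igf2r, which clears Igf2, was 3.65-fold higher on sham 2, Igfbp3 was 2.94-fold higher and Igf1r 2.87-fold higher. In folate transport and folate-dependent metabolism 8 of 17 were higher and 1 lower. The reduced folate carrier Slc19a1 read 3.33 on sham 2 and -1.58 to -1.34 elsewhere, which was 27.6-fold. The metabolic enzymes Mthfd1, Mtr and Tyms, which use folate cofactors, were 3.61-fold, 3.66-fold and 3.93-fold higher.

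Around klotho, 1 of 14 genes was higher and 6 lower, and the higher one was the phosphate transporter Slc20a2, at 8.61-fold. The bone morphogenetic protein and Wnt list held 5 higher and 6 lower genes out of 19. In it the ligand Bmp7 was 35.8-fold higher on sham 2, while the receptor Bmpr1b and the antagonist Grem1 were not well above background there and at least 51.6-fold and 42.0-fold brighter elsewhere. Among protease inhibitors, which include relatives of Wfdc2, 10 of 16 were higher and 3 lower. Spint2 was 33.4-fold and alpha-2-macroglobulin (A2m) 13.2-fold higher on sham 2, and Slpi had an inexact fold of 75.8, with only 3 of the other 5 arrays well above background. In lysophosphatidic acid signalling 4 of 16 genes were higher and 6 lower. The phospholipase Liph was at least 109.9-fold higher and the receptor Lpar1 was 27.9-fold lower on sham 2.

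In the renin-angiotensin and kinin list 5 of 14 genes were higher and 3 lower on sham 2. Angiotensinogen (Agt), the precursor of the peptide that Ace cleaves, was 78.2-fold lower, the receptor Mas1 was 88.5-fold lower, and the angiotensin receptor Agtr1a was 5.12-fold higher. Of the calmodulin family and the brush border complex 4 of 12 were higher and 5 lower, with the calcium-binding proteins Capsl 91.2-fold higher and Cabp7 199.6-fold lower. Of 22 other secreted and carrier proteins 11 were higher and 5 lower. The growth factors Mdk and Gdf15 were 72.1-fold and 86.9-fold higher, and Fgf2 and the lipocalin Apod were 40.3-fold and 37.1-fold lower.

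The study's comparison asks how castration alters hippocampal expression. Without sham 2, in orchidectomized 1 to 3 against sham 1 and 3, none of the 10 genes passed an adjusted p of 0.05 in limma fitted over 25208 probes with Benjamini-Hochberg adjustment. The same fit called 0 probes (0%), and its smallest adjusted p was 0.0603. At an unadjusted p under 0.05 there were 682 probes (2.71%), 113 of them higher (0.448%). Of the 10 genes 3 had such a p, all with higher means in orchidectomized animals: Ttr, Sostdc1 and Igfbp2. Differences were above 0 for 7 genes and below 0 for 3, against 44.9% and 55.1% of probes, and their median was 0.29, with a range of -0.24 to 1.58, against -0.02 over all tested probes.

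Ttr averaged 4.81 ± 0.42 in orchidectomized animals (SD, n = 3) and 3.23 ± 0.34 in sham 1 and 3 (SD, n = 2). The difference was 1.58 ± 0.29 (SE), with an adjusted p of 0.988 in limma and an unadjusted p of 0.00182. It is a lower bound, because orchidectomized 1 was saturated, and amounts to at least 2.99-fold. All 3 orchidectomized values, from 4.36 to 5.20, lay above both sham values. On scan day 1 alone, which held the 3 orchidectomized arrays and sham 1, the difference was 1.34, and between orchidectomized 3 and sham 1, which shared a slide, it was 0.89.

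Sostdc1 averaged -3.27 ± 0.85 in orchidectomized animals (SD, n = 3) and -4.61 ± 0.06 in sham 1 and 3 (SD, n = 2). Its difference of 1.34 ± 0.48 (SE) had a limma adjusted p of 0.988 and an unadjusted p of 0.0321. The groups did not overlap, but orchidectomized 3 was only 0.32 above sham 1 on their shared slide. Igfbp2 averaged 0.07 ± 0.20 in orchidectomized animals and -0.54 ± 0.38 in sham 1 and 3. Its difference was 0.62 ± 0.22 (SE; limma adjusted p = 0.988, unadjusted p = 0.031) with the brighter probe and 0.60 ± 0.29 (unadjusted p = 0.0851 in limma) with the other. On the shared slide it was 0.13. Over all probes, groups without overlap and higher in orchidectomized animals made up 6.24%, and those without overlap and lower made up 10%. Among the 10 genes 3 were higher without overlap, and Calml4 was lower without overlap. The second probes of Igfbp2 and Calml4 did overlap between the groups.

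The other genes had smaller differences or wider spreads. Kl differed by 0.92 ± 0.57 (SE), with -6.44 ± 0.89 in orchidectomized animals and -7.36 ± 0.72 in sham 1 and 3. Igf2 differed by 0.38 ± 0.24, Folr1 by 0.21 ± 0.65 and Wfdc2 by 0.04 ± 0.20 (SE). The enzymes Ace and Enpp2 had differences of -0.17 ± 0.22 and -0.18 ± 0.38, and Calml4 had -0.24 ± 0.16 (SE). The unadjusted p-values of these 7 genes in limma lay between 0.158 and 0.852. The difference of Folr1 turned to -0.60 on scan day 1 and to -1.34 on the shared slide, and that of Kl was 0.41 on scan day 1 and -0.55 on the shared slide. On scan day 1, 5 of the 10 genes were above 0 and on the shared slide 4 were. All orchidectomized arrays were scanned on day 1 and sham 3 on day 2, so what sham 3 adds to the difference and what the scan day adds cannot be told apart.

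**Figure D3:**
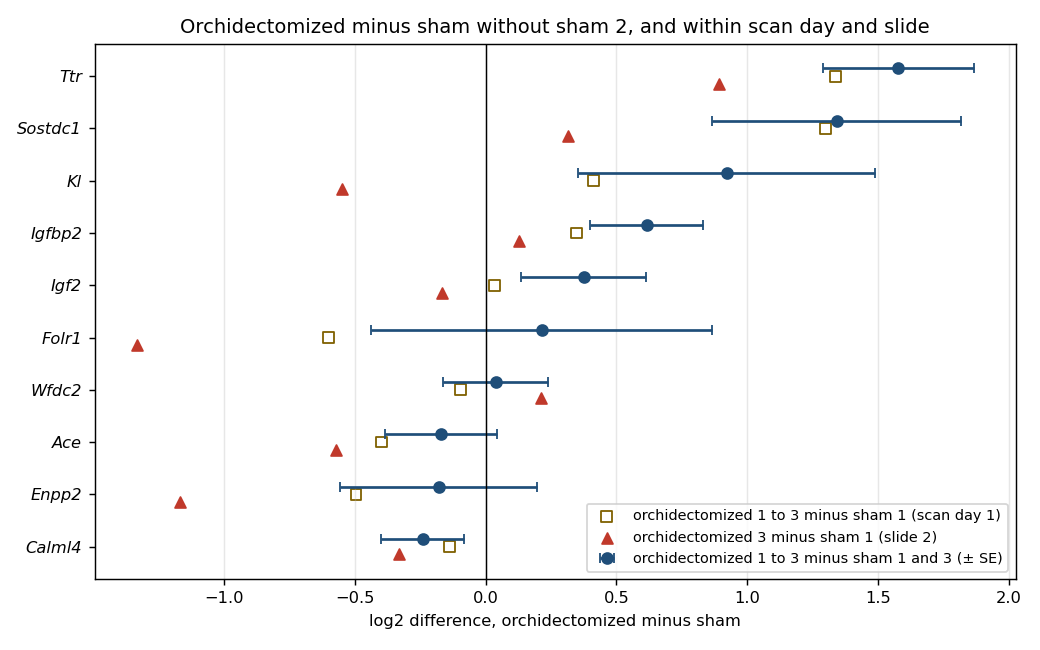
Log2 difference of orchidectomized minus sham for each gene: orchidectomized 1 to 3 minus sham 1 and 3 with its standard error (circles), the same on scan day 1 only (squares) and orchidectomized 3 minus sham 1 on their shared slide (triangles). Ttr lies at 1.58, 1.34 and 0.89 in the 3 comparisons, while Folr1 lies at 0.21, -0.60 and -1.34.

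The arrays of 1 group also differed among themselves. Among the 5 arrays, orchidectomized 1 was the highest for 5 of the 10 genes and sham 3 the lowest for 6. In 9 genes orchidectomized 3 was below both other orchidectomized arrays, with Wfdc2 the exception, and in 9 genes sham 1 was above sham 3, with Calml4 the exception. In 6 genes orchidectomized 3 was also below sham 1. Without sham 3 the median over the 10 genes was -0.030, and without sham 1 it was 0.80.

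Cell type marker lists differed in direction in the same comparison, with no gene called. Of 14 tested choroid plexus markers 13 were higher in orchidectomized animals, with a median of 0.28 and 0 called in limma. Among them Cldn2 differed by 1.15 (unadjusted p = 0.0386), Kcnj13 by 1.02 (0.0798) and Tmem72 by 0.91 (0.0144), all from limma. The mean level of the 15 detected choroid plexus markers was -4.19, -4.48 and -4.79 in orchidectomized 1 to 3. It was -4.50 in sham 1, within that range, and -5.25 in sham 3, the only array of this comparison scanned on day 2. All 10 myelin markers were lower in orchidectomized animals, with a median of -0.30 and 0 called, and Cldn11 differed by -0.60 (unadjusted p = 0.00704 in limma). Blood markers were lower in 5 of 6 genes, with a median of -1.02 and 0 called. An unadjusted limma p under 0.05 was found for 4 of these 6, for 2 choroid plexus markers and for 1 myelin marker, against 2.71% of all tested probes. Ependymal markers were lower in 6 of 8 genes (median -0.16) and glutamatergic markers in 11 of 16 (-0.12). Astrocyte and microglial markers were higher in 8 of 10 genes each (0.12 and 0.13), and endothelial markers in 5 of 9 (0.22). Interneuron and meningeal markers were split evenly, with 5 of 10 and 6 of 12 higher. Whether choroid plexus, myelin, blood or other cell content had a part in the differences of the 10 genes was not tested.

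The profile of Ttr over the 5 arrays was set against that of 12275 genes, each centred on its own mean, by the root mean square distance. The nearest genes were Ccn1 (a matricellular protein), Cldn2, Sostdc1, Kcnj13 and Mmp14 (a membrane-bound metalloprotease), at 0.32, 0.33, 0.35, 0.38 and 0.47 log2 units, against a median of 0.86 over all genes. Cldn2 and Kcnj13 are among the choroid plexus markers. Of the 10 genes Kl came next, at 0.47, followed by Igfbp2 at 0.49 and Igf2 at 0.62, in places 6, 7 and 37. Folr1 lay at 0.82, in place 3039, and Calml4 at 0.93, in place 10259. Wfdc2, Ace and Enpp2 lay between them at 0.87 to 0.88, near the median. Genes near Ttr were found from these same values, so their direction between groups adds nothing to that of Ttr, and the saturated value of orchidectomized 1 flattens the Ttr profile.

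**Figure D4:**
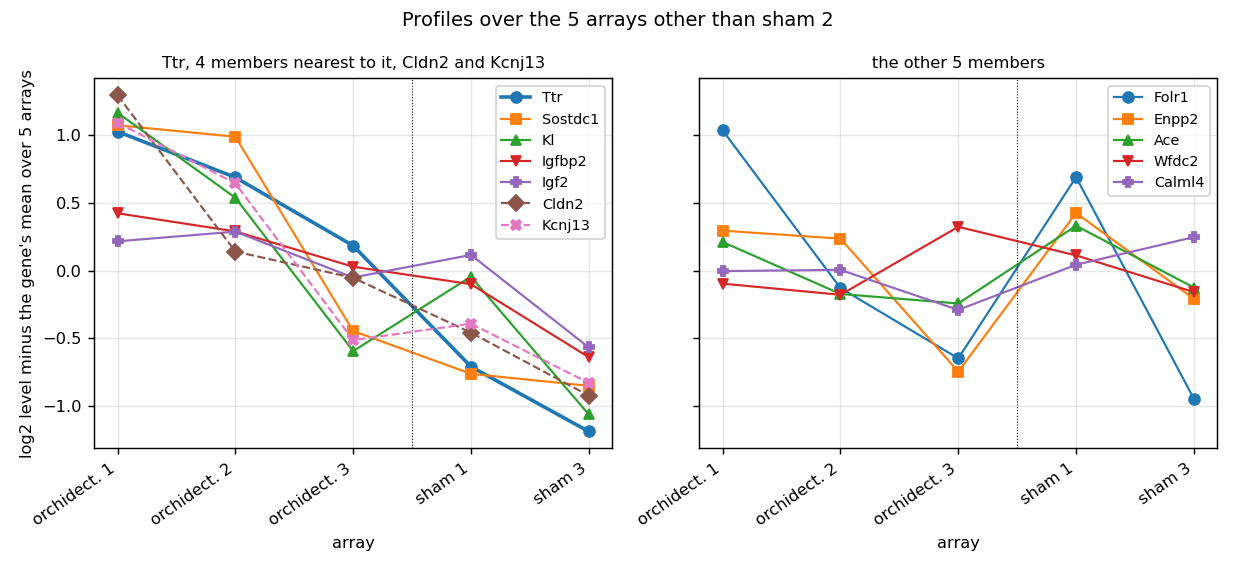
Log2 level of each gene minus its own mean over the 5 arrays other than sham 2 (vertical axis), by array (horizontal axis), with the orchidectomized arrays left of the dotted line. The left panel holds Ttr, the 4 genes of the set nearest to it and the markers Cldn2 and Kcnj13, which are highest in orchidectomized 1 or 2 and lowest in sham 3. Sham 1 lies above orchidectomized 3 for Kl, Igf2 and Kcnj13 on the left and for Folr1, Enpp2, Ace and Calml4 on the right.

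Partner genes had no call in this comparison either, in any of the 10 lists. In the thyroid hormone and retinol list 10 of 15 genes were higher and 5 lower, with a median of 0.07, and Dio2 differed by 0.35 (unadjusted p = 0.0356 in limma). The insulin-like growth factor list held 5 higher and 9 lower genes with a median of -0.05, and the folate list 9 higher and 8 lower with a median of 0.01. Around klotho 3 were higher and 10 lower, with a median of -0.09. The bone morphogenetic protein and Wnt list had 10 higher and 8 lower genes with a median of 0.02, and its member Sost, the closest relative of Sostdc1, differed by -0.77 (unadjusted p = 0.03 in limma), opposite in sign to Sostdc1. Medians were -0.06 for protease inhibitors, -0.06 for lysophosphatidic acid signalling, -0.05 for the renin-angiotensin list and -0.05 for the calmodulin list. The 22 other secreted proteins had 13 higher and 9 lower, with a median of 0.10. Osteopontin (Spp1) among them differed by -1.23 (unadjusted p = 0.00558 in limma).

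Over all 6 arrays, as the labels group them and with sham 2 of uncertain tissue, 9 of the 10 genes had lower means in orchidectomized than in sham animals. The sign of Ttr is not settled, because orchidectomized 1 and sham 2 were both saturated. No gene passed an adjusted p of 0.05 in limma, where 0 of 24630 probes (0%) did, 180 (0.731%) had an unadjusted p under 0.05, 0.0893% being higher, and the smallest adjusted p was 0.185. None of the 10 genes had an unadjusted p under 0.05. The median over the 10 genes was -1.83, against -0.02 over all tested probes, and 48.4% of probes were higher and 51.6% lower. Kl differed by -2.77 ± 3.16 (SE), Ace by -2.53 ± 2.00, Folr1 by -2.39 ± 2.28 and Sostdc1 by -1.93 ± 2.80. The measured difference of Ttr, 0.94 ± 0.61, bounds nothing, and those of the 5 genes saturated only on sham 2 would be further below 0 without saturation. For 9 genes the standard deviation of the sham group was 2.28 to 6.42 log2 units, against 0.17 to 0.89 in orchidectomized animals. The signs of Igf2, Igfbp2, Folr1, Kl, Sostdc1 and Wfdc2 in this comparison rested on sham 2, since all 6 were above 0 without it. Only Calml4 had groups without overlap, and with 1 of its 2 probes, at -0.66, -0.66 and -0.95 in orchidectomized 1 to 3 against -0.62, 4.77 and -0.41 in sham 1 to 3, while 4.74% of probes were lower and 3.26% higher without overlap.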

How the data were processed

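Per the file headers, the arrays were read with Agilent Feature Extraction 10.5.1.1, and the deposited processed signals are background-subtracted intensities. The values of the authors' deposited table are on a log2 scale, and each array's column is its log2 processed signal shifted by 1 constant (-0.32 to 0.72, within 0.05 for at least 99.8% of probes). Its medians were 8.02, 7.94 and 7.91 (orchidectomized) and 7.77, 7.62 and 8.04 (sham), in replicate order. The origin of the constants is unknown, and 1-colour values have no direction.

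Of 44254 spots, 1377 controls and all outlier-flagged spots were left out, log2 signals were averaged per probe, and flags were taken from 50% or more of a probe's spots. The GRCr8 gene table named 18004 probes and left 12363 unnamed. The array's build is another one, so gene coordinates are not given. A probe entered limma 3.58.1 (R 4.3.3; lmFit and eBayes, two-sided) if 1 group had it well above background on every array. P-values measure the spread between these animals, and precision is limited by how few arrays there are.

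Folds on sham 2 use the mean of the other 5 log2 values. They are bounds where sham 2 was saturated, or where the dim side was below background and was set to the array's lowest value well above it. Lists use 1 probe per gene. Slides held orchidectomized 1 and 2, orchidectomized 3 and sham 1, sham 2, and sham 3, and scan day 2 held sham 2 and 3. The main fits did not pair the arrays by replicate number.

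The 10 genes and all lists were chosen with earlier results of these data known, so no p over a list is given. Named genes are the 10 and, per list, up to 4 with the largest difference on sham 2 and up to 3 with the smallest unadjusted p without sham 2. Alternatives were normexp on median spot signals (offset 50), quantile and median scaling, the deposited values, brightness filters, slide, scan day and replicate blocks, array weights and leaving out each array.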

Additional observations from a re-analysis of the deposited data

How the results depend on the processing

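No gene of the 10 was called in limma under any setting of either comparison. Without sham 2 the difference of Ttr stayed between 0.89 and 1.82 over 15 settings and its adjusted p was at least 0.154, and Sostdc1 (0.32 to 1.83), Igfbp2 (0.13 to 0.88) and Calml4 (-0.34 to -0.14) also kept their sign. Of 0 probes called without sham 2, quantile scaling gave 2, median scaling 1, the deposited values 18, the scan day block 10 and leaving out 1 array 0 to 251, where 251 came without sham 3 and 22 without sham 1; the cause was not tested. The median over the 10 genes, 0.29, was -0.25 with the slide block and -0.030 with the scan day block, and -0.030 (without sham 3) to 0.80 (without sham 1) when 1 array was left out. Signs turned with the slide block for Igf2 (-0.17), Folr1 (-1.34) and Kl (-0.55), with the scan day block for Folr1 (-0.60) and Wfdc2 (-0.10), and with array weights for Wfdc2 (-0.085) and Enpp2 (0.11). When 1 array was left out they turned for Folr1 without orchidectomized 1 or sham 3 (range -0.60 to 1.03), for Wfdc2 without orchidectomized 3 or sham 3 (-0.11 to 0.17), for Enpp2 without orchidectomized 3 or sham 1 (-0.50 to 0.16) and for Ace without sham 1 (-0.40 to 0.057). Where 1 sham array was left, it was assumed to vary like the other group. The settings are not separate tests of a sign. The brightness filters left the differences of the 10 genes unchanged. The scan day block gave the same differences as leaving out sham 3, and the replicate block the same as leaving out orchidectomized 2.

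Over all 6 arrays, quantile scaling called 1 probe and array weights 13, with a weight of 0.0280 for sham 2. With array weights Ttr, saturated on orchidectomized 1 and sham 2, differed by 1.60. Its limma adjusted p of 0.0599 was then the lowest of Ttr in any setting. The median of -1.83 was -0.25 with the slide block, -0.030 with the scan day block, 0.0605 with array weights and 0.29 without sham 2, and -2.76 to 0.29 when 1 array was left out. Signs turned with the slide block for Igfbp2 (0.13), Sostdc1 (0.32) and Wfdc2 (0.21). They turned with the scan day block for Igf2 (0.035), Igfbp2 (0.35), Kl (0.41) and Sostdc1 (1.30). Sham 2 was alone on its slide, and scan day 2 held only sham arrays, so by design both blocks took sham 2 out of the difference. The differences under these blocks were the same with and without sham 2. With array weights they turned for Igf2 (0.19), Igfbp2 (0.49), Kl (0.93) and Sostdc1 (1.68), and among the settings that left out 1 array they turned without sham 2 only. The ranges were then -2.10 to 0.38 for Igf2, -2.41 to 0.62 for Igfbp2, -4.10 to 0.21 for Folr1, -4.88 to 0.92 for Kl, -3.59 to 1.34 for Sostdc1 and -2.68 to 0.039 for Wfdc2. On sham 2 the median of 5.41 ran from 5.35 to 5.43 when 1 of the other arrays was left out. With normexp the difference on sham 2 was 8.31 for Kl and 8.47 for Sostdc1, and with median scaling it was 5.67 for Wfdc2 and 5.68 for Calml4.

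With the replicate number as a block 0 probes were called in either comparison, and Ttr differed by 1.55 without sham 2. Same-numbered arrays deviated together at 0.18 (number 1) and -0.06 (number 3) without sham 2 and at -0.02 to 0.03 over 6 arrays. These correlations cannot decide whether the numbers pair the animals. Without sham 2 the deviations of the remaining sham arrays mirror each other, and over 6 arrays the sham deviations carry the profile of sham 2. The block changed no call. Over all probes the median difference was -0.101 with median scaling over 6 arrays and 0.079 with normexp without sham 2. Saturation limits what the arrays show for Ttr, Igf2, Igfbp2, Folr1, Sostdc1 and Enpp2 on sham 2, and low signal limits Kl elsewhere. The difference of Sostdc1 on sham 2 also moved with the background correction.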
